A study of Mus musculus with 2 samples.

Results

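Socs1, Socs2, Socs3 and Cish encode inhibitors of cytokine signalling, and Stat3, Stat5a, Stat5b and Stat6 encode transcription factors that cytokine receptors switch on. These 8 genes were taken by symbol from the 55357 genes listed for each library, and each symbol named 1 row. Their UMIs (unique molecular identifiers, each standing for 1 captured RNA molecule) were summed per cell class in 2 single-cell RNA libraries of the inflamed mouse colon. Both libraries, repeat1 and repeat2, hold all cells of the mid-colon of SPF (specific pathogen free) mice. The mice were 7 weeks old and had been given DSS (dextran sulfate sodium, a chemical that injures the colon epithelium) at 3% for 6 days. Both form 1 group, and the labels do not say whether they came from separate animals, so the spread between them may be technical. The errors (SE) below come from 1 model over all classes or subclasses, with the library difference taken out. They are not the spread of a single class between libraries. The labels name no strain, sex or genetic change. No untreated colon was analysed here, so no value below is an effect of DSS.

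Library 1 held 6597 barcodes with 76622643 UMIs, and library 2 held 9611 barcodes with 94204110 UMIs. After filters on gene number, mitochondrial share and doublets, 5418 and 8428 cells remained, with medians of 7923.5 and 6466.5 UMIs. The libraries shared 18 barcode sequences. Clusters were named only from marker genes, so every class name below means cells like that type, and 28 of 30 clusters could be named. Library 1 was richer in epithelial cells (31.5% against 12.8% of cells) and library 2 in mononuclear phagocytes (33.4% against 16.9%). A class needed 20 cells in both libraries to be tested, which 9 classes had, while smooth muscle cells with pericytes had 13 and 22.

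Cytokines bind paired receptors that carry JAK kinases. The kinases phosphorylate STAT proteins, which pair up, enter the nucleus and bind DNA elements of the form TTCNNNGAA, or the same letters with 1 more base between TTC and GAA in the case of STAT6. The SOCS genes and Cish are themselves STAT targets, and their proteins bind the receptors or the kinases and damp the signal that induced them. In the gut, STAT3 mediates signals of IL-6, IL-10, IL-11, IL-22 and oncostatin M, the STAT5 proteins those of IL-2, IL-7 and GM-CSF, and STAT6 those of IL-4 and IL-13.

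RefSeq promoters (250 bases before to 50 after the start, assembly GRCm38.p6) were matched for 7 of the 8 genes, and Socs2 had none. Of 32851 promoters of 300 bases, 8.30% held TTCNNNGAA and 6.95% held the longer STAT6 form, and both motifs read the same on both strands. Cish and Socs3 held TTCNNNGAA, and none of the 7 genes held the STAT6 form. The motif of GAAA, any 2 bases and GAAA again, read on both strands and typical of interferon-response elements, was added after the Socs1 values had been seen. It lay in 3.44% of all promoters and, among the 7 genes, in that of Socs1, where its 2 matches overlap each other. The stretches around the matches are shown because Cish, Socs3 and Socs1 were the genes among the 7 that held any, and capitals mark the matches.
Cish, chr9:107296654-107296683, plus strand: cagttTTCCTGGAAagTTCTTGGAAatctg
Socs3, chr11:117969472-117969560, minus strand: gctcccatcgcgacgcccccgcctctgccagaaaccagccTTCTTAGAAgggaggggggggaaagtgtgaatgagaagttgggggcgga
Socs1, chr16:10785564-10785659, minus strand: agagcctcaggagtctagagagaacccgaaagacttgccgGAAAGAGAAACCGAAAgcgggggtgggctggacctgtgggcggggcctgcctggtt
A match is a string of letters, and binding was not measured here.

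Levels are given as CPM (counts of a gene per 1000000 UMIs of a class in a library), scaled by TMM, a factor that centres the bulk of genes. Neutrophils had TMM factors of 0.477 and 0.515, so their scaled values are about double their plain CPM. Plain values are given beside many results of neutrophils, monocytes and colonocytes, whose differences shift between the scales. Against the mean of the other classes, the median of all genes in neutrophils lay at -0.13 (log2) on the TMM scale and at -1.25 on plain CPM, a shift of -1.12. Plasma cells moved by -0.65 in the same way and mast cells by 0.48, and most of their levels below are TMM-scaled only. Whether neutrophils are said to lead for a gene therefore depends on the scale, and the distance of a gene from the median gene does not.

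Socs3, which blocks signalling through the IL-6 receptor subunit gp130 and the G-CSF receptor, was highest in mononuclear phagocytes. Mononuclear phagocytes held 906 and 800 TMM-scaled CPM in libraries 1 and 2, and neutrophils held 600 and 622. On this scale both classes stood above fibroblasts, the next class, at 227 and 193, in both libraries. The difference between neutrophils and fibroblasts was 1.55 ± 0.26 (log2 ± SE, edgeR adjusted p = 1.67e-05). On plain CPM it was 0.28 ± 0.26 and did not pass (adjusted p = 0.352), with neutrophils at 286 and 319 and fibroblasts at 280 and 224. Phagocytes led neutrophils by 0.47 ± 0.24, which did not pass (adjusted p = 0.141 over all genes). On plain CPM phagocytes held 806 and 744, and their lead over neutrophils was 1.35 and passed (adjusted p = 0.000279, with a range of 0.000279 to 0.570 over 8 alternatives).

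Endothelial cells, at 210 and 203 CPM of Socs3, did not differ from fibroblasts, and B cells followed at 130 and 113. Epithelial cells were the lowest class at 35.5 and 26.0 CPM and plasma cells were next at 24.3 and 44.3. These 2 classes did not differ (edgeR adjusted p = 0.651), and on plain CPM plasma cells came last. After each cell was thinned to 2000 UMIs, 65.3% of phagocytes in library 1 (exact 95% interval 61.9 to 68.6) and 63.8% in library 2 held a Socs3 UMI. Unthinned, the shares were 82.1% and 84.9% at medians of 9252 and 7679 UMIs. Plasma cells gave the floor for such shares, with 3.03% and 4.04% thinned and 11.8% and 22.1% unthinned at deeper medians of 18078 and 13574 UMIs.

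Among the 3 named phagocyte subclasses tested, Socs3 was highest in monocytes. Unnamed cells, 405 of 916 phagocytes in library 1 and 1747 of 2819 in library 2, entered no subclass. No monocyte marker was among the leading genes of the subclusters named monocytes. Monocyte-like cells held 1974 and 2152 CPM, macrophage-like cells 554 and 438, and dendritic-like cells 244 and 234. The 3 subclasses did not overlap in either library. Monocytes exceeded the mean of the other 2 by 2.59 ± 0.20 (adjusted p = 1.18e-14), or 1.99 ± 0.20 on plain CPM (1306 and 1435 in monocytes), and the difference of dendritic cells from theirs was -2.08 ± 0.23. Neutrophils split in the same way. Cells called granule-low were named by high Il1b, Cxcl2, Ccl3, Ccl4, Ptgs2, Cd274 and Icam1, and low granule genes were not required. Granule-high cells were named by granule genes such as Ngp and Camp. Granule-low cells held 1348 and 1069 CPM of Socs3, and granule-high cells held 197 and 314. That difference was 2.21 ± 0.26 (adjusted p = 4.44e-08). The granule-low cells of the libraries were not alike: in their Cxcl10-led part Ngp was at 549 plain CPM in library 1 and 6880 in library 2, against 21674 and 21196 in granule-high cells.

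Socs3 is often counted among genes that tissue dissociation raises, so 13 other such genes (Fos, Jun, Egr1 and the like) were summed beside it. Their sum was 11893 and 12479 CPM in phagocytes, 13190 and 11629 in neutrophils, and 2100 and 1968 in T, NK and innate lymphoid cells. On plain CPM it was 10576 and 11600 in phagocytes and 6274 and 5974 in neutrophils. Plasma cells (6743 and 6299) and mast cells (4558 and 8215) had higher sums than B cells (1968 and 2213), although B cells held the most Socs3 of the 3 on average. Monocytes held 18035 and 17109 against 9844 and 9979 in macrophages, and granule-low neutrophils 17276 and 14644 against 9533 and 8251 in granule-high cells. Of the 13 genes, 9 were higher in phagocytes than in the mean of the other classes (28.3% of all genes were) and 1 was lower (14.8%). In lymphoid cells none were higher (28.4%) and 10 were lower (17.2%). On the TMM scale the sum was thus high in the classes and subclasses with the most Socs3 but did not follow Socs3 across the others. On plain CPM the sum of neutrophils lay below those of endothelial cells (7445 and 6688) and mast cells (6343 and 10360). The part of these stress genes in the Socs3 pattern was not tested.

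Socs1, which blocks JAK kinases and restrains interferon signals, was highest in neutrophils but differed between libraries there. Neutrophils held 70.7 CPM in library 1 and 266 in library 2, phagocytes 53.2 and 74.1, lymphoid cells 39.5 and 39.3, and B cells 35.3 and 16.8. Neutrophils led phagocytes by 1.40 ± 0.35 (adjusted p = 0.00281). Phagocytes did not differ from lymphoid cells, and none of the neighbours below them in the order differed. The neutrophil lead rested on library 2: without that library it was 0.37, and without library 1 it was 1.56, neither with a test. On plain CPM (33.6 and 137 in neutrophils) the lead was 0.53 and did not pass (adjusted p = 0.308, with a range of 8.95e-13 to 0.308 over 8 alternatives).

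Socs1 was uneven within neutrophils and within phagocytes, and small groups of cells held the highest levels. Among neutrophil subclusters, that led by the interferon-induced genes Cxcl10, Ifit1 and Gbp5 held 239 and 414 plain CPM. It made up 10.1% of neutrophils in library 1 (44 cells) and 21.0% in library 2 (194 cells), and without it the class fell to 18.9 and 65.2. Library 2 was thus still above library 1 among the remaining neutrophils. Among phagocytes, the subcluster led by Cxcl10 and Cxcl11 held 217 and 223 and made up 2.40% and 11.3% of cells. Without it the class went from 47.3 and 68.9 to 43.1 and 47.4, nearly level between libraries. A subcluster led by Cfb and Nos2 (inducible nitric oxide synthase) followed at 143 and 91.1. These subclusters were singled out after their values had been seen, Socs1 itself took no part in the clustering, and no test was made on them.

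**Figure D1:**
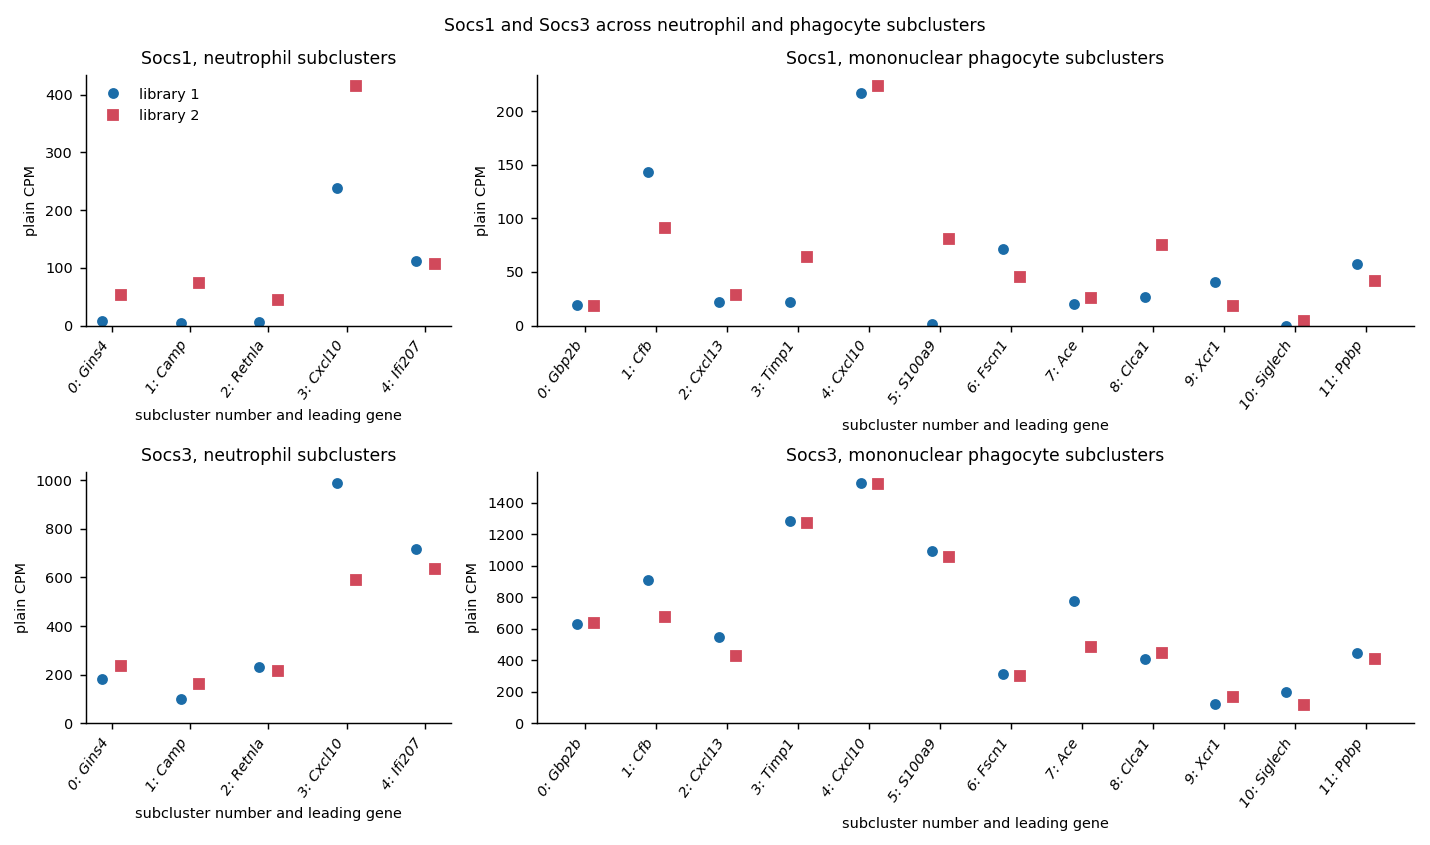
Plain CPM of Socs1 (top) and Socs3 (bottom) in each subcluster of neutrophils (left) and mononuclear phagocytes (right), with circles for library 1 and squares for library 2; the x axis gives the subcluster's number and leading gene. In neutrophils the subcluster led by Cxcl10 is highest for Socs1 in both libraries (239 and 414), and in phagocytes the subcluster led by Cxcl10 is highest for both genes.

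The Socs1 tests of granule-low neutrophils and monocytes include the Cxcl10-led cells above and are not separate support. Those cells were 44 of 130 granule-low neutrophils in library 1 and 194 of 344 in library 2. Granule-low neutrophils held 262 and 564 CPM and granule-high cells 10.5 and 145, a difference of 2.31 ± 0.45 (adjusted p = 0.000424). Monocytes held 59.9 and 255 CPM, 2.15 ± 0.36 above the mean of macrophages (25.3 and 29.9) and dendritic cells (60.3 and 33.0), or 1.55 ± 0.37 on plain CPM. The monocyte value of library 1 overlapped that of dendritic cells. Different subclusters made up the monocytes of the 2 libraries: the Cxcl10-led cells were 22 of 209 in library 1 and 319 of 483 in library 2. Among epithelial cells, colonocytes held 48.5 and 27.7 CPM, 2.02 ± 0.36 above goblet and undifferentiated cells, all 4 of whose values lay between 7.26 and 13.9. On plain CPM that difference was 0.93 ± 0.36 (edgeR adjusted p = 0.0213), with colonocytes at 25.8 and 17.5 and undifferentiated cells at 16.9 and 9.17. The make-up of colonocytes also differed between libraries. A subcluster with Rsad2 and Ifit1 among its leading genes gave 148 of 933 colonocytes in library 1 and 9 of 472 in library 2. The Pdk4-led cells numbered 352 and 12. The part of this make-up was not tested.

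**Figure D2:**
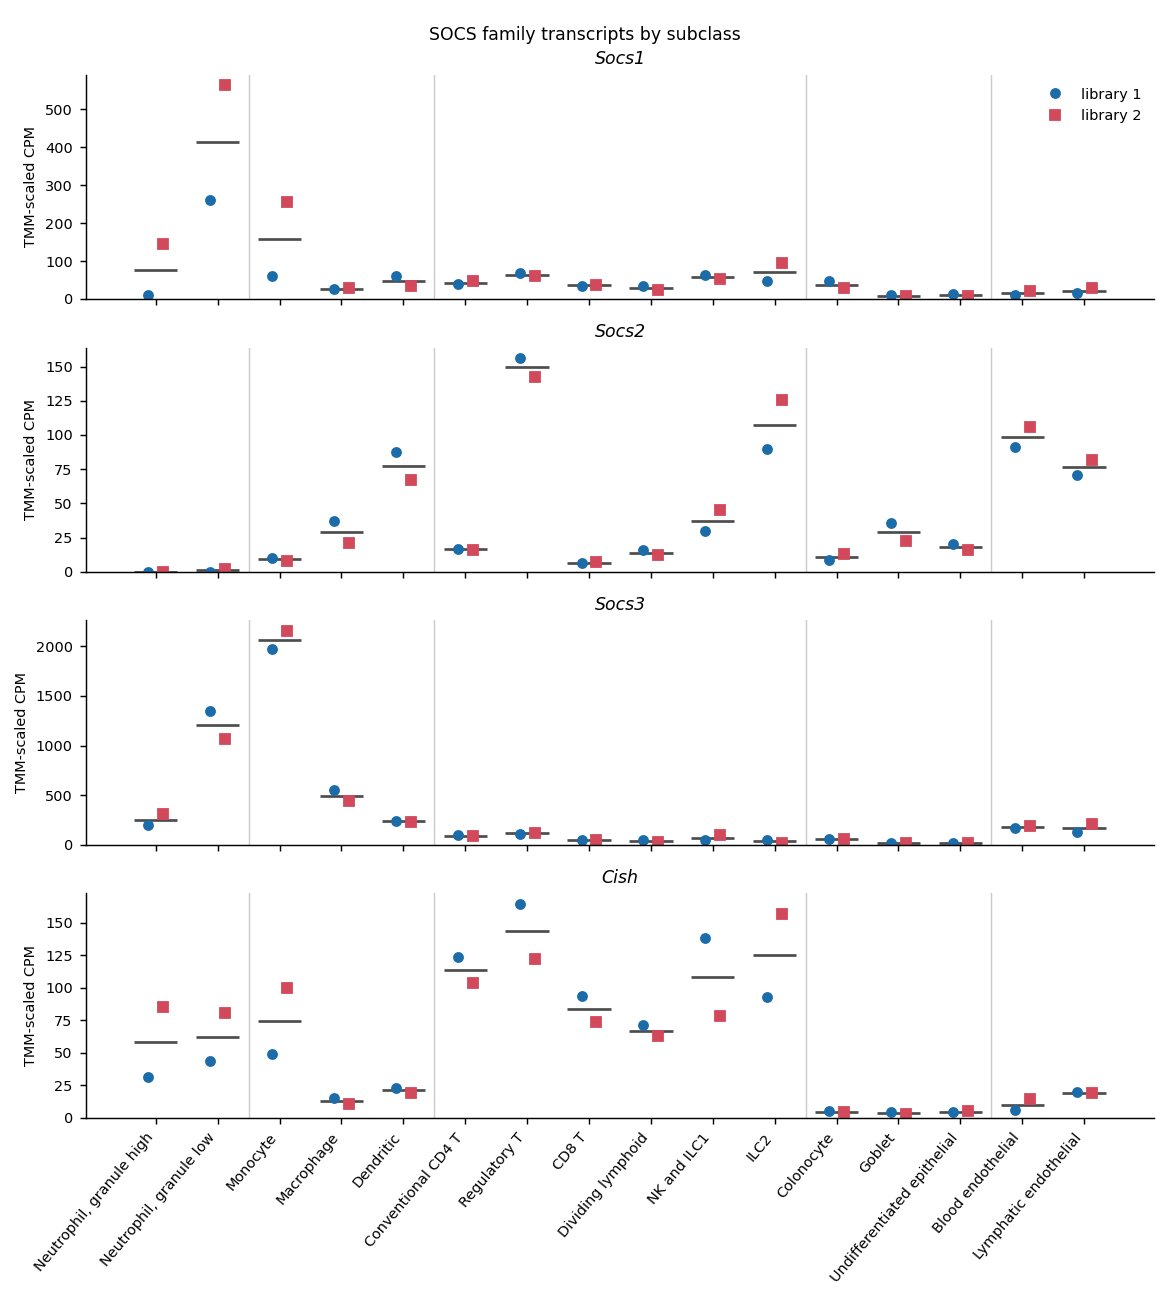
TMM-scaled CPM of the 4 inhibitor genes in 16 subclasses (circles library 1, squares library 2, bars their mean; grey lines part neutrophils, phagocytes, lymphoid, epithelial and endothelial cells). Socs3 peaks in monocytes at 1974 and 2152, Socs1 in granule-low neutrophils, Socs2 in regulatory T cells at 156 and 143, and Cish is at or above 63.0 in all 6 lymphoid subclasses.

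Cish, an inhibitor induced by STAT5 and known for restraining IL-2 and T cell receptor signals, was highest in lymphoid cells. T, NK and innate lymphoid cells held 82.8 and 76.9 CPM, neutrophils 48.5 and 74.8, mast cells 42.7 and 29.8, and phagocytes 31.1 and 29.5. Lymphoid cells lay above all other classes in both libraries, but their lead over neutrophils of 0.35 ± 0.22 did not pass (adjusted p = 0.241). On plain CPM neutrophils fell to 23.1 and 38.5, mast cells became second, and the lymphoid lead of 0.96 passed (adjusted p = 0.0462, with a range of 0.0462 to 0.826 over 8 alternatives). The first clear step down in the order lay between phagocytes and endothelial cells (0.96 ± 0.33, adjusted p = 0.0234), and B, plasma, epithelial cells and fibroblasts held at most 8.94 CPM in either library.

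Among lymphoid subclasses Cish was widespread, from 63.0 CPM in dividing cells of library 2 to 164 in regulatory T cells of library 1. Dividing cells (71.0 and 63.0) differed from the mean of the other lymphoid subclasses by -0.73 ± 0.22 (adjusted p = 0.0146), and no other lymphoid subclass differed. Monocytes held 49.4 and 99.5 CPM of Cish, 2.25 ± 0.27 above macrophages (15.2 and 10.7) and dendritic cells (23.3 and 19.0), or 1.65 ± 0.27 on plain CPM. Monocytes were thus the named phagocyte subclass with both Socs3 and Cish highest.

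Socs2, known as the inhibitor of growth hormone signalling, was distributed differently from the other inhibitors. Endothelial cells held 96.0 and 81.3 CPM, plasma cells 66.4 and 70.0, and fibroblasts 64.9 and 68.0. On this scale these 3 classes did not differ from each other in order, and the step from fibroblasts to phagocytes (29.0 and 13.6) was 1.77 ± 0.24 (adjusted p = 1.48e-06). On plain CPM plasma cells fell to 42.5 and 47.9, below fibroblasts at 80.2 and 78.8, and endothelial cells had a mean of 115. Neutrophils held 2 UMIs in each library. The ratio of endothelial cells to neutrophils on plain CPM was 200.5 in library 1 (counting interval 52.8 to 1698) and 276 in library 2 (74.6 to 2306). Intervals of counts and shares cover counting error only. Among the receptors that Socs2 is known to damp, Ghr (growth hormone receptor) was highest in fibroblasts at 78.4 and 53.0 CPM, and Prlr (prolactin receptor) in plasma cells at 42.1 and 95.7. Both had a called lead over the next class, of 1.27 ± 0.31 and 2.97 ± 0.48.

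Within immune lineages Socs2 picked out small subclasses. Regulatory T cells, marked by Foxp3, held 156 and 143 CPM, type 2 innate lymphoid-like cells 89.9 and 125, and conventional CD4 T cells 17.0 and 16.2. CD8 T cells were lowest at 6.36 and 7.16. Regulatory T cells exceeded the mean of the other 5 lymphoid subclasses by 2.71 ± 0.25 (adjusted p = 6.92e-11), on 76 and 21 UMIs. Type 2 innate lymphoid cells rested on 28 and 12 UMIs and lay 1.99 ± 0.33 above theirs. They also had 9 of 13 dissociation stress genes higher (4.01% of all genes were). The part of these stress genes was not tested. Regulatory T cells and type 2 innate lymphoid cells did not differ (0.60 ± 0.35, adjusted p = 0.460). Dendritic cells held 87.5 and 67.4 CPM of Socs2, 2.28 ± 0.24 above macrophages and monocytes, and monocytes (9.87 and 8.32) differed from theirs by -2.35 ± 0.29. Socs2 and Socs3 were thus in opposite order across the 3 phagocyte subclasses. In the epithelium goblet cells held 35.7 and 22.9 CPM, 1.04 ± 0.19 above colonocytes and undifferentiated cells.

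**Figure D3:**
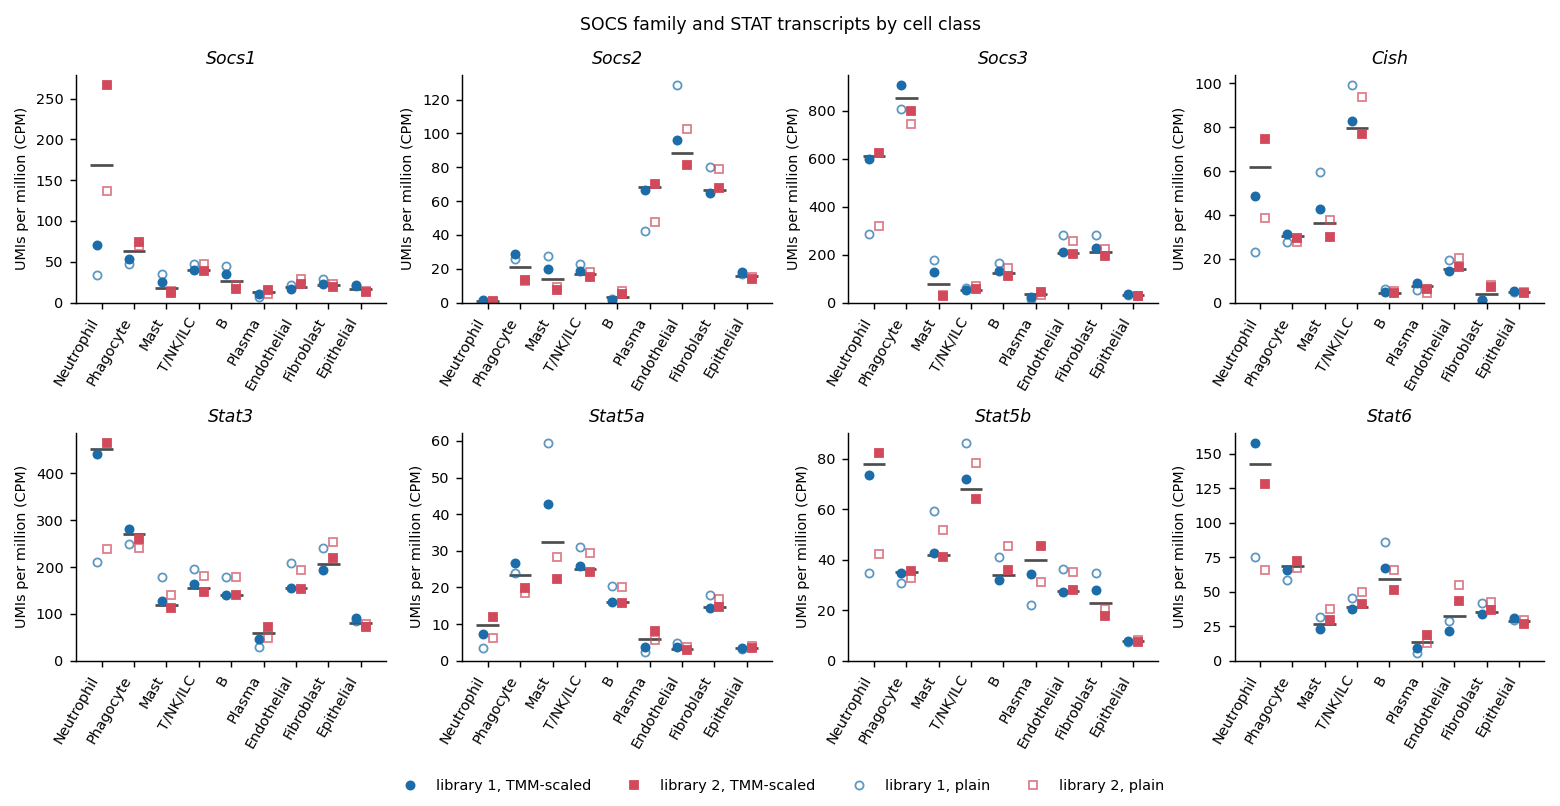
CPM of each gene in 9 cell classes (circles library 1, squares library 2; filled symbols TMM-scaled with a bar at their mean, open symbols plain CPM). Filled and open symbols part most in neutrophils, where the TMM factors are 0.477 and 0.515; Socs2 is near 0 there on both scales.

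Stat3, which relays IL-6 family, IL-10 and IL-22 signals, was found in every class. Neutrophils held 441 and 465 CPM, phagocytes 280 and 260, fibroblasts 195 and 219, and lymphoid cells 164 and 148. Epithelial cells (90.7 and 71.2) and plasma cells (47.2 and 72.0) were lowest. Neutrophils led by 0.75 ± 0.17 on the TMM scale (adjusted p = 0.00126), but on plain CPM (210 and 239) they lay below fibroblasts (240 and 254) and phagocytes (249 and 241), and no class led (adjusted p = 0.969, with a range of 7.46e-09 to 0.969 over 8 alternatives). Monocytes held 420 and 481 CPM, 1.08 ± 0.15 above the mean of macrophages (162 and 169) and dendritic cells (292 and 263). On plain CPM the difference was 0.48 ± 0.14 (adjusted p = 0.00507), with monocytes at 278 and 321, beside dendritic cells at 295 and 274. On the TMM scale macrophages differed from the other 2 by -1.09 ± 0.16. Colonocytes held 155 and 152 against 62.3 and 47.6 in undifferentiated cells, and their difference from the other epithelial subclasses, 1.31 ± 0.14 on the TMM scale, was 0.25 on plain CPM and did not pass (adjusted p = 0.119).

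Stat6, the factor of IL-4 and IL-13, was highest in neutrophils on the TMM scale, at 158 and 128 CPM. Phagocytes held 65.6 and 72.1 and B cells 67.4 and 51.6. The neutrophil lead was 1.04 ± 0.20 (adjusted p = 0.000189). On plain CPM neutrophils (74.9 and 65.8) lay beside B cells (86.1 and 65.6), and no class led (adjusted p = 0.867, with a range of 2.24e-07 to 0.867 over 8 alternatives). Plasma cells were lowest at 8.94 and 18.5, although B cells were among the higher classes. Blood endothelial cells held 51.4 and 57.0 CPM of Stat6 against 3.95 and 28.1 in lymphatic endothelial cells (adjusted p = 0.0469), on 1 and 12 UMIs in the latter, and the call was lost with DESeq2 (0.0564), without the count filter (0.0610), with doublets kept (0.183) and with endothelial cells fitted alone (0.104).

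Stat5a and Stat5b encode close relatives that answer to IL-2, IL-7 and GM-CSF, and their transcripts were spread differently. Stat5b was highest in neutrophils (73.4 and 82.1 CPM) and lymphoid cells (72.1 and 64.1), which did not differ (0.20 ± 0.17, adjusted p = 0.431). On plain CPM lymphoid cells came first at 86.3 and 78.1, with neutrophils at 34.9 and 42.2. Epithelial cells were clearly last at 7.87 and 7.35, 1.49 ± 0.23 below fibroblasts (adjusted p = 7.12e-06). Stat5a was sparse: mast cells held 42.7 and 22.3 CPM on 15 and 6 UMIs, lymphoid cells 25.9 and 24.1, phagocytes 26.8 and 19.8, and neutrophils 7.40 and 11.9. None of its neighbours in the order differed.

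Regulatory T cells were the lymphoid subclass with the most Stat5b. They held 154 and 170 CPM of Stat5b against 97.1 and 84.0 in conventional CD4 T cells, and 1.27 ± 0.21 more than the mean of the other lymphoid subclasses (adjusted p = 3.24e-05). Their Stat5a, at 55.4 and 20.4 CPM, was also higher than that mean, by 1.25 ± 0.37 (adjusted p = 0.0418). It rested on 27 and 3 UMIs, the value of library 2 lay below the 29.2 of conventional CD4 T cells there, and the call was lost under 3 alternatives. Il2ra, the high-affinity chain of the IL-2 receptor, stood at 616 and 380 CPM in regulatory T cells and at 53.9 and 71.5 in conventional CD4 T cells. Among phagocytes monocytes held 44.4 and 47.3 CPM of Stat5a and dendritic cells 52.5 and 36.5, and neither scale gave a difference between them that passed (dendritic minus monocyte -0.09 ± 0.26, adjusted p = 0.879, and 0.55 ± 0.26 on plain CPM, adjusted p = 0.0898). On plain CPM monocytes, at 29.4 and 31.5, lay below dendritic cells, at 53.1 and 38.1, in both libraries. Macrophages held 16.3 and 11.6, a difference from the other 2 of -1.73 ± 0.25.

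**Figure D4:**
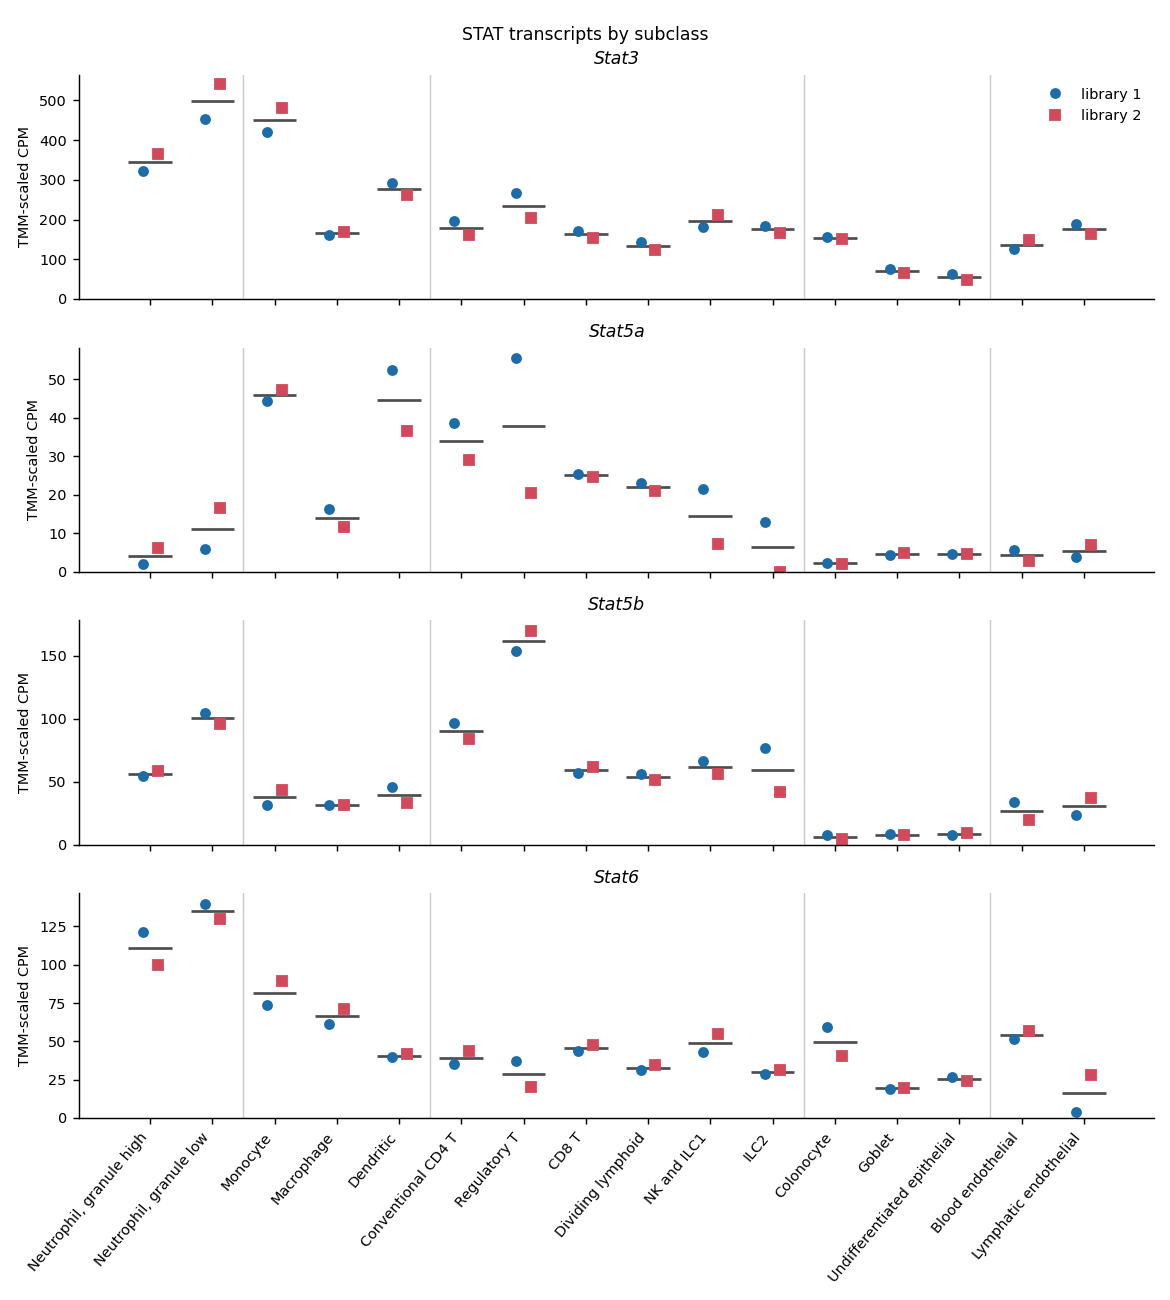
TMM-scaled CPM of the 4 STAT genes in 16 subclasses (circles library 1, squares library 2, bars their mean; grey lines part the lineages). Stat5b peaks in regulatory T cells at 154 and 170, and Stat3 and Stat6 are highest in neutrophils and monocytes.

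The genes lie close together in part. On the GRCm38 genome Stat3 (chr11:100885098-100939540, minus strand) and Stat5a (chr11:100859351-100885169, plus strand) overlap by 72 bases at their 3′ ends, where this assay reads. Their levels nevertheless parted in neutrophils, with a mean of 453 CPM for Stat3 and 9.67 for Stat5a. Stat5b (chr11:100780731-100850724, minus strand) points away from Stat5a, and 8626 bases lie between the starts of the pair. Socs3 lies on the same chromosome (117966079 to 117970047), Socs1 on chromosome 16 (10782240 to 10785536), Cish on chromosome 9 (107296026 to 107302784), and Socs2 and Stat6 on chromosome 10 (95385362 to 95417180, and 127642986 to 127660957). In the last 500 bases of each gene's transcript, none of 451 stretches of 50 bases occurred in a transcript of another gene.

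Across classes, 3 of the 8 genes had a called source class, meaning 1 class above every other, beside 36.5% of all 14407 genes tested. Those 3 (Socs1, Stat3 and Stat6, all in neutrophils) lost the call on plain CPM, where Socs3 and Cish gained it (28.9% of all genes had one there). Set against the unweighted mean of the remaining 8 classes, phagocytes had 6 of the 8 higher and none lower (28.3% of all genes were higher), on either scale. Neutrophils had 6 higher (27.7%) and Socs2 lower (27.4%), or 5 and 2 on plain CPM (12.9% and 53.7%). Epithelial cells had 7 lower and none higher on either scale (21.2% of all genes were lower), Socs2 being the exception. Lymphoid cells had 3 higher (Cish, Stat5a and Stat5b) (28.4%) and Socs3 lower (17.2%), and on plain CPM 5 were higher (43.9%). Plasma cells had Socs2 higher (18.3%) and 4 lower (16.3%), or 6 lower on plain CPM (37.3%). Fibroblasts had Socs2, Socs3 and Stat3 higher (28.4%) and Cish and Stat5b lower (19.8%), and endothelial cells had Socs2 and Socs3 higher (21.6%) and Stat5a lower (13.4%). Mast cells had Cish and Stat5a higher (9.81%) and none lower (7.03%), and B cells had Stat6 higher (15.9%) and Socs2 and Cish lower (13.6%). Some calls were lost in alternative fits. Those of Stat6 in B cells (adjusted p 0.0528 and 0.0644) and Socs1 in epithelial cells (0.216 and 0.220) were lost under 2. Under 1 each, Cish in mast (0.0653) and plasma cells (0.0664) and Stat3 (0.0524) and Stat5b (0.0940) in fibroblasts were lost.

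Within lineages, monocytes had 6 of the 8 higher (18.7% of all 14994 genes were higher) and Socs2 lower (15.1%), with Stat5a and Stat6 lost on plain CPM (8.45% higher there). Macrophages had 4 lower, namely Socs1, Cish, Stat3 and Stat5a (8.09%). The calls of Socs1 (adjusted p 0.317), Cish (0.150) and Stat5a (0.0504) were each lost under 1 alternative fit. Regulatory T cells had 4 higher (3.09%), Socs2, Socs3, Stat5a and Stat5b, and none lower (0.76%). Of these the Socs3 call (1.04 ± 0.30, adjusted p = 0.0365) was lost with doublets kept (0.0953) and without the library as a block (0.0503). Dividing lymphoid cells had 5 lower (4.86%). CD8 T cells (2.45%) and conventional CD4 T cells (1.04%) had Socs2 lower, by -2.59 ± 0.28 and -1.08 ± 0.23, and none higher (6.04% and 4.69%). Type 2 innate lymphoid cells had Socs2 higher (4.01%), and NK and type 1 innate lymphoid cells had none higher (4.43%) or lower (2.25%). Dendritic cells had Socs2 and Stat5a higher (11.9%) and Socs3 and Stat6 lower (14.3%). Their Stat6 call was lost on plain CPM (-0.507, edgeR adjusted p = 0.0641) and their Stat5a call under 1 alternative fit (0.0556). Undifferentiated epithelial cells had Socs3 and Stat3 lower (26.5%), but 4 genes higher (43.4%) and 1 lower (11.7%) on plain CPM. Blood endothelial cells had Stat6 higher than lymphatic ones (3.27%) and none lower (3.19%). Granule-low neutrophils had Socs1 and Socs3 higher (3.83%), and 4 genes on plain CPM (5.82%). Colonocytes had 4 higher (36%) and 2 lower (30.5%) on the TMM scale but 2 higher (16.6%) and 4 lower (52.6%) on plain CPM, where their median gene shifted by -0.93. Goblet cells had Socs2 higher (22.8%) and 4 lower (24%), and on plain CPM 3 higher (38.3%) and none lower (11.9%). Of the lower calls, Stat3 was lost under 6 alternative fits, Socs3 under 3, Socs1 under 2 and Stat6 under 1. The monocyte result also depended on how cells were grouped: at a coarser clustering the name fell to other cells, in which Socs3 (1.11) and Stat6 (0.65) were still higher, Socs1 (-0.52), Cish (0.29) and Stat3 (0.25) did not pass, and Stat5a was lower (-0.93).

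Set directly against phagocytes, neutrophils were higher for 5 genes (22.5% of all genes were higher) and lower for Socs2 and Stat5a (28.8% were lower). On plain CPM 0 were higher (8.52% of all genes were) and 3 were lower, Socs3 having joined (52.9%). The median gene lay at -0.17 on the TMM scale and -1.04 on plain CPM. Relative to that gene, neutrophils were above phagocytes by 1.57 for Socs1, 1.33 for Stat5b, 1.23 for Cish, 1.21 for Stat6 and 0.92 for Stat3. They were below by the same measure for Socs3 (-0.30), Stat5a (-0.99) and Socs2 (-4.17).

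**Figure D5:**
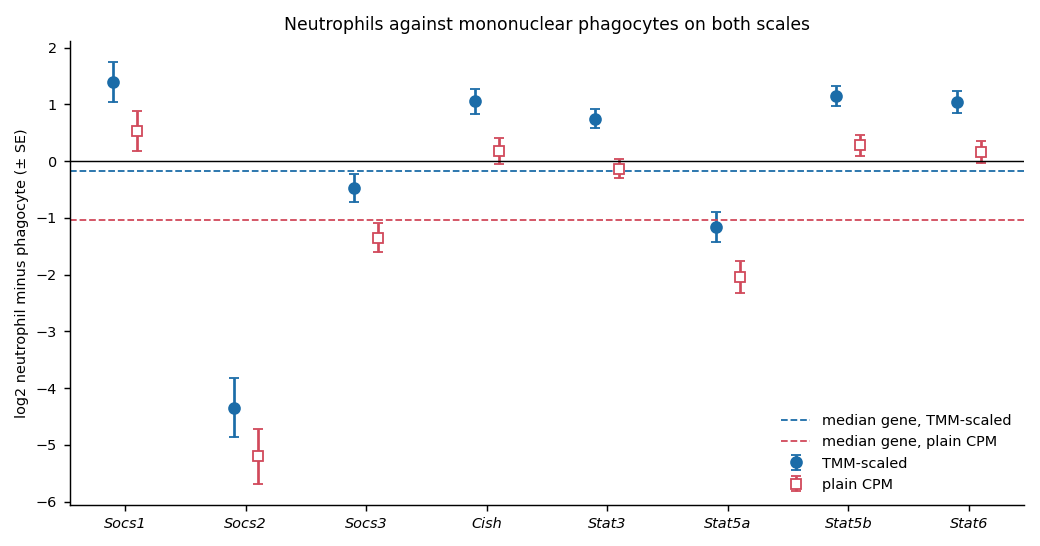
Log2 difference (neutrophils minus mononuclear phagocytes, ± SE of the edgeR fit) for each gene, TMM-scaled (filled circles) and on plain CPM (open squares), with dashed lines at the median of all genes on each scale. Socs2 lies far below both lines, and 5 genes lie above the median gene on either scale.

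The surrounding pathway was described with 116 genes in 8 lists, of which 105 could be tested and 55 (52.4%) had a called source class, beside 36.5% of all genes tested. On plain CPM 47 had one, beside 28.9% of all genes, and 39 of the 55 kept theirs in the same class. Source classes in neutrophils numbered 16 on the TMM scale and 4 on plain CPM. Of 7 JAK kinases and other STATs, 3 had one, among them Jak2, the kinase of gp130 and GM-CSF receptors, in phagocytes (229 and 195 CPM), and Stat4, the IL-12 factor, in lymphoid cells (169 and 173). Jak1 did not, with 435 and 420 CPM in neutrophils against 340 and 393 in lymphoid cells. Of 13 other SOCS genes and inhibitors, 2 had one: the phosphatase Ptpn6 in neutrophils (479 ± 36.4, SD, n = 2; not called on plain CPM) and Socs5 in endothelial cells (52.6 ± 0.126).

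Of 11 tested receptors of STAT3 cytokines, 5 had a source class (36.5% of all genes did), or 4 on plain CPM (28.9%). Csf3r, the G-CSF receptor, was at 885 and 761 CPM in neutrophils against 77.4 and 88.4 in phagocytes, and Lepr, the leptin receptor, was led by endothelial cells (39.0 ± 3.89). Il6st (gp130) was high in fibroblasts (357 and 404) and endothelial cells (315 and 286), which did not differ, and low in phagocytes (43.4 and 37.5), the class with the most Socs3. Il6ra was at 172 and 178 in neutrophils and 108 and 131 in phagocytes, a lead that did not pass (adjusted p = 0.0524). Il10ra was at 133 and 134 in phagocytes and 119 and 105 in neutrophils, or 119 and 125 against 56.8 and 54.2 on plain CPM.

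Of 14 tested receptors of STAT5 cytokines, 12 had a source class (36.5% of all genes did), or 8 on plain CPM (28.9%). Il2rb (295 and 302) and Il2ra (68.4 and 65.3) belonged to lymphoid cells, as did Cish by rank. Csf2rb, a GM-CSF receptor chain, was led by neutrophils (806 and 806), with 491 and 468 in phagocytes, but on plain CPM neutrophils (384 and 415) lay below phagocytes (438 and 437) and no class led. Of 8 receptors of STAT6, interferon or IL-12 cytokines, 2 had a source class, Il13ra1 in neutrophils (241 and 198, not called on plain CPM) and Il12rb1 in lymphoid cells (23.7 ± 0.368). All 8 were higher in phagocytes than in the mean of the other classes (28.3% of all genes were), on either scale, and 6 in neutrophils (27.7%), or 4 on plain CPM (12.9%). Il4ra was at 323 and 330 in neutrophils and 312 and 244 in phagocytes, a difference that did not pass, and at 154 and 170 against 278 and 228 on plain CPM.

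Of 19 tested ligands, 10 had a source class (36.5% of all genes did), or 8 on plain CPM (28.9%). Oncostatin M (Osm) came from neutrophils (652 and 627 CPM), ahead of phagocytes (320 and 238), a lead that was not called on plain CPM, and interferon gamma (Ifng) from lymphoid cells (237 and 242). Il11 was led by fibroblasts at 907 and 216 and Il4 by mast cells at 37.0 and 85.6, so the libraries differed widely for both. Of 20 tested STAT targets, 16 had a source class (36.5% of all genes did), 6 of them in neutrophils. On plain CPM 13 had one (28.9%), 3 of them in neutrophils. The kinase gene Pim1 (2209 and 1678) was among the 6 and had no source class on plain CPM. Gata3, the type 2 factor, was led by lymphoid cells (63.6 ± 12.7) and Arg1 (arginase) by phagocytes (88.6 ± 0.843). Of the 13 stress genes 5 had one, with Egr1 (1178 ± 119) and Ier2 (650 ± 74.3) led by neutrophils on the TMM scale and by no class on plain CPM.

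The genes most like each member over the 18 class sums were sought among 6535 genes by Pearson's r of log2(CPM + 1), as a description: sums of 1 class share a cell type and sums of 1 library share its depth. Socs3 was most like Rhbdf2 (0.937), then Gpr84 and Tnfaip2. Socs1 was most like the interferon-induced Trim30a (0.895), then Gm45220 and Use1. Cish was most like Fyb (0.912), then Lcp2 and Myo1f, adaptor and motor genes of leukocytes. Socs2 was most like Golt1b (0.912), then Tmem176a and Ube2e3. Stat3 was most like Rara (0.927), then Chd1 and Phf21a, and Stat6 was most like Rlf (0.954), then Gm45220 and Morc3. Stat5a was most like Runx1 (0.886), then Rgs2 and Ubap2l, and Stat5b was most like Gng2 (0.924), then D16Ertd472e and Wipf1. No gene was among the 3 most like both Stat5a and Stat5b, whereas Gm45220 was among those of both Socs1 and Stat6.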

How the data were processed

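Each library's gene by barcode matrix holds whole UMI counts as deposited by the authors, made with Cell Ranger 7.0.0 per the file headers (8.0.0 per the submitters' processing notes) on mm10. Barcodes with fewer than 200 genes, 20% or more mitochondrial counts or the highest scrublet doublet scores (0.8% per 1000 barcodes) were left out, and the rest were clustered with scanpy 1.11.5 without the 8 genes and the pathway lists. Clusters and subclusters were named from marker lists by rules set after the clusters were seen. Many cells remained unnamed at the subclass level and entered no subclass.

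Counts were summed per library and class and tested with edgeR 4.0.16 (quasi-likelihood, TMM, filterByExpr), with Benjamini-Hochberg adjustment over all genes and a threshold of 0.05. The classes of 1 library come from the same sample, so the library was a block in the model. Classes were compared with the unweighted mean of the others, and a source class had to exceed each other class. The scripts were tested on simulated data. Alternatives were plain CPM, DESeq2 1.42.0, no count filter, a minimum of 500 genes, doublets kept, coarser clusters, no block, each lineage fitted alone, each library left out, and, added after seeing the data, subclusters led by another class left out. The 8 genes are all named. Of each pathway list the 2 genes with a called source class and the largest lead are named, as are ligands and receptors set beside a member. A gene that this rule names is not reported here. Jak1, Stat4 and Pim1 were named after their values were seen. Labelled repeats are the replicates. The 8 genes and the lists were chosen with earlier results of these data known.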

Additional observations from a re-analysis of the deposited data

How the results depend on the processing

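Of the alternatives with a test, plain CPM changed the most calls. On it the differences between the first class and the next were -0.147 for Stat3 and -0.0890 for Stat6 (from neutrophils), 0.530 for Socs1, 1.35 for Socs3 and 0.963 for Cish, and 0 genes were higher in neutrophils than in phagocytes, with Stat3 at -0.129. Plain CPM also gave 0.421 for Stat3 in endothelial cells, -0.899 for Cish in colonocytes and 0.0852 for Stat3 in goblet cells. At the coarser clustering, Socs1 was at 1.52 in dendritic cells and -0.519 in monocytes, Stat5a at -0.934 in monocytes and Stat3 at 0.475 in type 2 innate lymphoid cells. The fit without the library as a replicate block changed the calls of Socs3 in goblet cells (-0.601, then adjusted p = 0.0621) and in regulatory T cells (1.05, adjusted p = 0.0503) and no other call. Leaving out either library, with no test, gave leads of 0.368 to 1.56 for Socs1, 0.181 to 0.658 for Socs2, 0.635 to 0.646 for Socs3, 0.255 to 0.755 for Cish, 0.559 to 0.612 for Stat3, -0.205 to 0.675 for Stat5a, 0.0430 to 0.140 for Stat5b and 0.545 to 1.22 for Stat6. Leaving out library 1 or 2 moved 69 and 72 of 192 single differences by more than the spread between libraries. Those runs also had no count filter and used log CPM without the model, so a move is not the influence of the library alone. Thinning, which takes UMIs away and so tends to lower shares by design, moved 65 of 72 shares of cells. The cause of the moves without a library was not tested. Sparse genes limit what depth can show: Stat5a had 697 and 1034 UMIs in all cells.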
